A study of Mus musculus with 12 samples.

Results

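The genes described here encode the TGF-beta ligands (Tgfb1, Tgfb2 and Tgfb3), their receptors (Tgfbr1, Tgfbr2 and Tgfbr3) and the latent TGF-beta binding proteins (Ltbp1, Ltbp2, Ltbp3 and Ltbp4). They were chosen by symbol, with earlier results of these data known, and are 10 of the 53452 genes in the deposited table. Expression was measured by RNA sequencing in cells that the labels call HSCs, taken from the livers of wild-type mice. The name is read here as hepatic stellate cells, which store vitamin A and wrap the sinusoids of the liver. After 12 h in culture every group was given fresh medium, and RNA was collected 24 h after that. Riociguat, a drug that stimulates soluble guanylate cyclase, was present for the final 6, 12 or 24 h, and the solvent DMSO for the final 12 h. Each of the 4 groups had 3 libraries. The sources used here give neither dose nor age nor number of animals, and nothing says that replicates came from separate animals, so p-values measure only the spread between these libraries, which may be technical.

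TGF-beta is made as a precursor whose cut propeptide stays bound to the mature dimer and keeps it inactive. Latent TGF-beta binding proteins attach this complex to the matrix, from which integrins, proteases or thrombospondin can release the ligand. The type III receptor Tgfbr3 (betaglycan) presents the ligand, above all TGF-beta 2, to the type II receptor Tgfbr2, which recruits and phosphorylates the type I receptor Tgfbr1, and this kinase activates SMAD2 and SMAD3. In injured liver, TGF-beta drives stellate cells to become contractile and to make collagen.

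Some ligand and latency genes were lower after riociguat, at particular times. Tgfb2 and Tgfb3 were lower than in DMSO after 6 and 12 h, and Tgfb2 also after 24 h, while Tgfb1, the most abundant ligand transcript, passed the test in no comparison. Ltbp2 and Ltbp1 were low at 6 h and lay near or above the DMSO level at 24 h. The 3 receptor genes were higher than in DMSO at 24 h, by between 12.8% and 32.8%. Only the 12 h riociguat and DMSO groups were exposed for equal times, and all 3 comparisons with DMSO share the same DMSO libraries. At 6 and 24 h the compound and the stage of culture at its addition differ together from DMSO and cannot be told apart. In these bulk samples, fewer cells of a type and less RNA per cell cannot be told apart either.

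Library totals ran from 12953096 to 27358893 counts, and all 10 genes were among the 16036 that passed the filter on low counts. Of all pairs of libraries within a group, DMSO replicate 1 differed most from its 2 fellows. The chi-square per degree of freedom was 12.3 and 16, against 4.08 for the other DMSO pair. Values or calls against DMSO are therefore also given without it for most of the 10 genes, and counts for the pathway lists together. The 19 stellate identity markers summed to between 4366 and 4464 CPM (counts of a gene after scaling all libraries to 1 common size with TMM factors, CPM) in DMSO, led by Reln with a mean of 1367 CPM, although Lrat and Gfap, both classical stellate markers, were low at 4.81 and 0.77 CPM. Other liver cell types left their markers as well. In DMSO the sums were 2030 to 2151 CPM for endothelial, 1562 to 1627 CPM for hepatocyte and 150 to 162 CPM for macrophage markers. Platelet markers, from a cell rich in TGF-beta 1, summed to between 24.4 and 30.2 CPM over all 12 libraries, with the mean of Pf4 between 21.5 and 22.6 CPM and Gp9 at 0 in DMSO and after 6 and 12 h.

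Promoter sequence was given by RefSeq for 8 of the 10 genes on GRCm38.p6, as the 250 bases before an annotated start. RefSeq gives 2 windows for Ltbp1, of which the first is shown. The 3 windows printed belong to the genes with the smallest p against DMSO among those with a window. Each is written 5′ to 3′ on the strand of its gene. Capitals mark matches on either strand to CAGAC (a SMAD box), TGACGTCA (a cyclic AMP response element), CACGTG (an E-box) or GCGTG (the core of a xenobiotic response element). TGAGTCA (an AP-1 site), GGAATG (a TEAD site) and the CArG box, also searched for, are not in these windows, and GGGCGG (a GC box) was searched for but is not capitalised.
Tgfb2, chr1:186705990-186706239, minus strand: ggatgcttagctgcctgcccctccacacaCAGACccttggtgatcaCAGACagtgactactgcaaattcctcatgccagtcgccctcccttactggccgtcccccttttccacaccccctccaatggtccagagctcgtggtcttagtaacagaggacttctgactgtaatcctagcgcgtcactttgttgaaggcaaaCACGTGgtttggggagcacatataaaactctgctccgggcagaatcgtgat
Ltbp2, chr12:84876492-84876741, minus strand: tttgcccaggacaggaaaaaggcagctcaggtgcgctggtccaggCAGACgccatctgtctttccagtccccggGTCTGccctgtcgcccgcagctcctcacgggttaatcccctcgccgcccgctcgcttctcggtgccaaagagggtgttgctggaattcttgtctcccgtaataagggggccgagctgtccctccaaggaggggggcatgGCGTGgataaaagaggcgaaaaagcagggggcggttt
Ltbp1, chr17:75005279-75005528, plus strand: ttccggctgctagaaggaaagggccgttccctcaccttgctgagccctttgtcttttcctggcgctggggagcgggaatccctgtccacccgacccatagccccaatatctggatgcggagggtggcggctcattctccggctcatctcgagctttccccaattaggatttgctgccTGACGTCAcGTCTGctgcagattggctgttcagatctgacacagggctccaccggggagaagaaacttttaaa
The Tgfb2 window holds 2 SMAD boxes and an E-box 51 bases before the start. The Ltbp2 window holds 2 SMAD boxes, a xenobiotic response element core 37 bases before the start and 2 GC boxes. By the gene coordinates given below, however, Ltbp2 reaches to 84876532. The last bases of its window, with the xenobiotic response element core and the nearer GC box, lie inside the gene as annotated there. The first Ltbp1 window holds a cyclic AMP response element 73 bases before the start, beside a SMAD box 64 bases before it. The second Ltbp1 window (chr17:75178531-75178780, plus strand), which is not printed, holds no cyclic AMP response element and 2 SMAD boxes, 148 and 97 bases before its start. Among 32851 promoter windows of this length, 1.55% held the cyclic AMP response element, 42.2% a SMAD box, 28.2% the xenobiotic response element core, 32.7% a GC box, 6.02% the E-box, 4.46% the AP-1 site, 12.6% the TEAD site and 1.47% the CArG box. A match describes the letters of the window and not a site in use.

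The 12 h comparison asks what riociguat changed against solvent of the same duration. Of the 10 genes, 2 fell and 0 rose (quasi-likelihood test of edgeR, p adjusted by Benjamini-Hochberg over all genes tested, called under 0.05). Across all genes tested, 5.66% were called, with 2.18% higher and 3.48% lower. Both genes that fell are ligands, and the median log2 fold change of the 10 genes was 0.01, against 0.00 for all genes tested. Cholangiocyte sums were 663 to 711 CPM in DMSO and 760 to 869 CPM at 12 h, with 1 of 8 markers higher, 0 lower. Spp1 of that list had means of 266 and 386 CPM. Endothelial sums were 2030 to 2151 CPM in DMSO and 1879 to 2016 CPM at 12 h, with 2 of 15 markers lower, 0 higher. Of 19 stellate identity markers 3 were higher and 4 lower, and their sums overlapped. No hepatocyte or macrophage marker was called. The part of these markers at 12 h was not tested.

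Tgfb2 encodes the ligand that depends most on betaglycan for binding (ENSMUSG00000039239, chromosome 1, 186622792 to 186705989, minus strand, GRCm38). Its levels were 12.7, 16.8 and 14.2 CPM in DMSO replicates 1 to 3, and 8.71, 10.5 and 9.93 CPM after 12 h of riociguat. Every riociguat library lay below every DMSO library. The log2 fold change was -0.59 ± 0.12 (SE, n = 3 per group, adjusted p = 0.00426), with a 95% interval from -0.83 to -0.34. After 6 h the levels were 10.3, 10.4 and 9.64 CPM, and after 24 h 8.47, 8.84 and 8.16 CPM, again all below DMSO. Against DMSO the log2 fold change was -0.53 ± 0.12 at 6 h (adjusted p = 0.00708) and -0.78 ± 0.12 at 24 h (adjusted p = 0.00022). Leaving out DMSO replicate 2, the highest of its group, ended the call at 6 h (adjusted p = 0.0584). Without DMSO replicate 1 the values were -0.67 at 12 h, -0.62 at 6 h and -0.87 at 24 h, each still called. No difference between exposure times passed the test, and the difference of 24 h against 6 h was -0.25 ± 0.12 (adjusted p = 0.205, 95% interval -0.51 to 0.01).

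Tgfb3 encodes the third ligand (ENSMUSG00000021253, chromosome 12, 86056745 to 86079041, minus strand). Its levels were 33.5, 36.3 and 43.1 CPM in DMSO, 26.2, 24.3 and 28.2 CPM after 6 h and 26.8, 22.8 and 27.7 CPM after 12 h. Both riociguat groups lay wholly below DMSO. On the log2 scale the change was -0.52 ± 0.10 at 6 h (adjusted p = 0.00227) and -0.55 ± 0.10 at 12 h (adjusted p = 0.00159). At 24 h the levels were 30.1, 32.1 and 33.6 CPM, which overlapped DMSO, and the log2 fold change of -0.24 ± 0.10 did not pass the test (adjusted p = 0.123). Without DMSO replicate 1, which had the lowest Tgfb3 level of its group, the values were -0.59 at 6 h, -0.62 at 12 h and -0.31 at 24 h, and the last was then called (adjusted p = 0.0419). The 24 h libraries all lay above the 6 and 12 h libraries, but neither difference passed the test, with 0.28 ± 0.10 against 6 h (adjusted p = 0.0677) and 0.31 ± 0.10 against 12 h (adjusted p = 0.114). The exons of Tgfb2 and Tgfb3 overlap those of noncoding genes on the other strand with counts of 0 to 3 per library.

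Tgfb1, the ligand best known from fibrosis (ENSMUSG00000002603, chromosome 7, 25687002 to 25705077, plus strand), did not pass the test anywhere. It was at 174, 167 and 172 CPM in DMSO, 178, 143 and 170 CPM at 6 h, 181, 162 and 165 CPM at 12 h and 182, 176 and 174 CPM at 24 h. All groups overlapped, and replicate 2 of the 6 h group was the lowest library. The log2 fold change at 12 h was -0.02 ± 0.06 (adjusted p = 0.945), with a 95% interval from -0.15 to 0.12. At 6 h it was -0.07 ± 0.06 (adjusted p = 0.6) and at 24 h 0.05 ± 0.06 (adjusted p = 0.663). Without DMSO replicate 1 none of these was called.

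**Figure D1:**
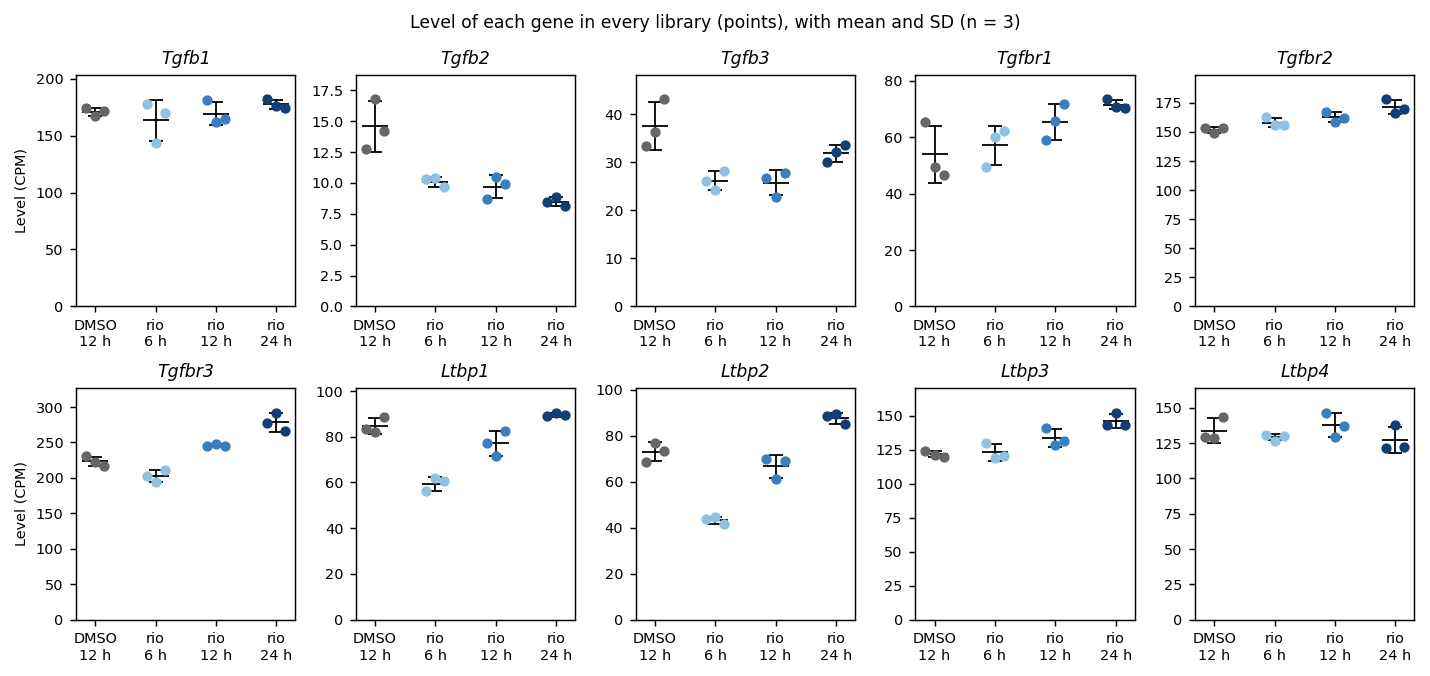
Level of each of the 10 genes in CPM (y axis, linear from 0) in each library, by group (x axis; rio, riociguat), with points for libraries and black bars for the mean and SD of 3 libraries. Tgfb2 lies below DMSO in every riociguat group, Ltbp1 and Ltbp2 are low at 6 h and near or above DMSO at 24 h, and Tgfb1 overlaps between all groups.

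Per length, the ligand genes were far from equal. Levels per length, which are CPM per kilobase of exon rescaled so that each library has the same total, came to 113 ± 1.91 for Tgfb1, 37.2 ± 5.64 for Tgfb3 and 8.41 ± 1.33 for Tgfb2 in DMSO (SD, n = 3). Tgfb1 therefore made up 74.1%, 70.9% and 69.1% of the ligand level in the DMSO libraries, Tgfb3 23.3% ± 2.38 and Tgfb2 5.30% ± 0.79. In riociguat the share of Tgfb1 was 77.3% ± 1.37 at 6 h, 78.3% ± 1.36 at 12 h and 76.3% ± 1.24 at 24 h (SD, n = 3), with every riociguat library above every DMSO library. Tgfb2 held 3.93% ± 0.57 of the ligand level at 12 h and 3.18% ± 0.13 at 24 h. The summed ligand level was 159 ± 7.82 in DMSO, with 151.3 in the lowest library. It was between 124.5 and 147.3 in the 6 h libraries and between 130.1 and 150 in the 12 h libraries, both without overlap with DMSO. At 24 h it was 155 ± 0.19, which lay within the DMSO range. With the longest transcript as the length, Tgfb1 held 82.6% in DMSO and 87.4% at 12 h. The ligand shares thus depend on the length used, while the order of the ligands does not. The shares are descriptions and were not tested.

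**Figure D2:**
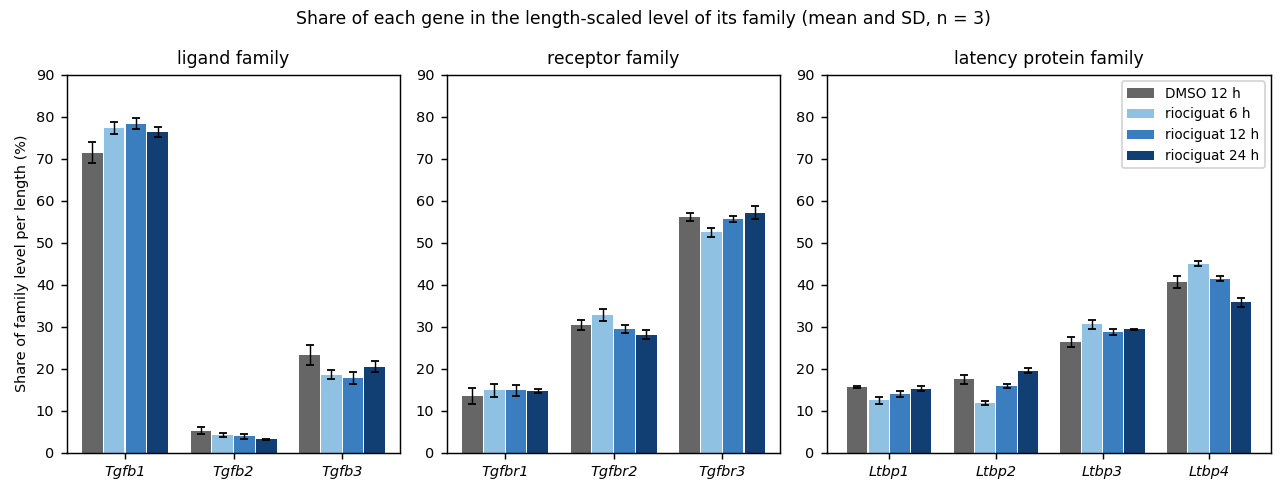
Share of each gene in the summed length-scaled level of its family (y axis, percent) in the 4 groups, with bars for the mean and error bars for the SD of 3 libraries. Tgfb1 makes up 71.4% of the ligand level in DMSO and 78.3% at 12 h, and Ltbp2 makes up 17.5% of the latency protein level in DMSO, 11.9% at 6 h and 19.5% at 24 h.

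None of the 3 receptor genes passed the test at 6 h or 12 h, and all 3 rose at 24 h, as did the latency genes Ltbp2 and Ltbp3. In the 24 h comparison 5 of the 10 genes rose and 1 fell, against 13.4% of all genes tested called, 5.94% higher and 7.41% lower. The 24 h libraries had received riociguat together with the fresh medium, 12 h earlier than DMSO was added to its group. Hepatocyte markers moved in the same comparison, with sums of 1562 to 1627 CPM in DMSO and 810 to 1092 CPM at 24 h, 12 of 15 markers lower, 0 higher and none at 0, while endothelial sums were 2030 to 2151 CPM in DMSO and 1811 to 1907 CPM at 24 h, with 5 of 15 markers lower, 2 higher and none at 0. Cholangiocyte sums were 663 to 711 CPM in DMSO and 1065 to 1110 CPM at 24 h, with 1 of 8 markers lower, 1 higher and none at 0, and Spp1 of that list had a mean of 266 CPM in DMSO and 732 CPM at 24 h. The part of these markers in the results at 24 h was not tested. The stellate identity sum lay between 4706 and 4988 CPM at 24 h, above DMSO, with 9 of 19 markers higher and 3 lower.

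Tgfbr3 encodes betaglycan (ENSMUSG00000029287, chromosome 5, 107106570 to 107289629, minus strand). Levels were 230, 223 and 217 CPM in DMSO, 203, 194 and 211 CPM at 6 h, 246, 248 and 245 CPM at 12 h, and 277, 292 and 266 CPM at 24 h. The 6 h libraries were all below DMSO, and the 12 and 24 h libraries all above it. Against DMSO the log2 fold change was -0.14 ± 0.05 at 6 h (adjusted p = 0.058), 0.14 ± 0.05 at 12 h (adjusted p = 0.0908) and 0.31 ± 0.05 at 24 h (adjusted p = 0.000126), and only the last passed the test. With DESeq2 the 6 h and 12 h differences passed as well (adjusted p = 0.0257 and 0.0268). Without DMSO replicate 1 the values were -0.12, 0.16 and 0.34, with only the last called. Gm43422 shares 297 exon bases with Tgfbr3 and had at most 11 counts per library.

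Tgfbr1, the type I receptor kinase (ENSMUSG00000007613, chromosome 4, 47353222 to 47414931, plus strand), was at 65.5, 49.6 and 46.7 CPM in DMSO. The first of these is DMSO replicate 1, and it lay apart from the other two. Levels were 49.3, 60.1 and 62.3 CPM at 6 h, 59.1, 65.7 and 71.7 CPM at 12 h and 73.5, 70.6 and 70.5 CPM at 24 h. Only the 24 h libraries were all above DMSO, with a log2 fold change of 0.41 ± 0.11 (adjusted p = 0.017). It did not pass when DMSO replicate 2 (adjusted p = 0.091), DMSO replicate 3 (adjusted p = 0.0835) or riociguat 24 h replicate 1 (adjusted p = 0.0525) was left out, and the value was 0.57 without DMSO replicate 1. At 12 h the log2 fold change was 0.28 ± 0.11 (adjusted p = 0.173). It was 0.44 and called without DMSO replicate 1 (adjusted p = 0.00403), and 0.29 and called without the filter on low counts (adjusted p = 0.000734). At 6 h it was 0.10 ± 0.11 (adjusted p = 0.662), and 0.26 without DMSO replicate 1 (adjusted p = 0.0746).

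Tgfbr2, the type II receptor kinase that binds the ligand (ENSMUSG00000032440, chromosome 9, 116084293 to 116175360, minus strand), had the smallest spread between replicates. Its levels were 154, 149 and 153 CPM in DMSO, 163, 156 and 156 CPM at 6 h, 168, 159 and 162 CPM at 12 h, and 178, 166 and 170 CPM at 24 h. Every riociguat library was above every DMSO library, by small steps. The fitted log2 fold change was 0.06 ± 0.04 at 6 h (adjusted p = 0.481), 0.10 ± 0.04 at 12 h (adjusted p = 0.248) and 0.17 ± 0.04 at 24 h (adjusted p = 0.0117). Leaving out DMSO replicate 2 ended the 24 h call (adjusted p = 0.0624), which stood without DMSO replicate 1, with a value of 0.18. Per length, the summed receptor level was 203 ± 3.62 in DMSO and 249 ± 6.12 at 24 h (SD, n = 3), without overlap. Betaglycan made up 56.1% ± 0.98 of it in DMSO, Tgfbr2 30.5% ± 1.20 and Tgfbr1 13.5% ± 1.93.

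**Figure D3:**
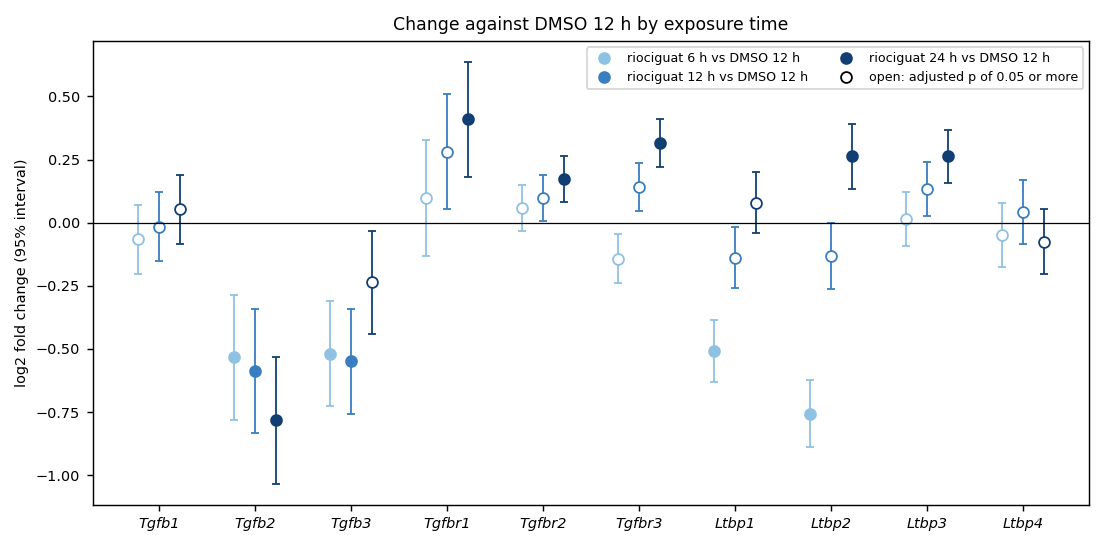
Log2 fold change against DMSO 12 h (y axis) of each gene (x axis) after 6, 12 and 24 h of riociguat, with 95% intervals from the fit over 12 libraries and filled points for an adjusted p under 0.05. Ltbp2 goes from -0.76 at 6 h to 0.26 at 24 h, Tgfb2 is below 0 at all 3 times, and the 3 receptor genes are called only at 24 h.

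At 6 h 2 of the 4 latency genes, Ltbp1 and Ltbp2, fell, and Ltbp3 and Ltbp4 were not called. In all, 4 of the 10 genes fell (Tgfb2, Tgfb3, Ltbp1 and Ltbp2) and 0 rose, against 9.72% of all genes tested called, 4.48% higher and 5.24% lower. The median log2 fold change of the 10 genes was -0.10, against 0.00 for all genes tested. Markers of portal fibroblasts and mesothelium, matrix-producing cells of the liver, summed to between 825 and 914 CPM in DMSO and between 688 and 699 CPM at 6 h, with 2 of 15 markers lower, 0 higher and none at 0. Most of this difference lay in Fbln2, with a mean of 384 CPM in DMSO and 252 CPM at 6 h. Krt8 had 375.5 and 344.3 CPM, while the means of Eln, Entpd2 and Pi16 were higher at 6 h. Endothelial sums lay between 2187 and 2328 CPM at 6 h, above DMSO, with 4 of 15 markers higher and 2 lower. The stellate identity sum lay between 4758 and 4847 CPM, also above DMSO, with 2 of 19 markers higher and 2 lower. Hepatocyte sums (1382 to 1555 CPM), cholangiocyte sums (616.5 to 657.4 CPM) and macrophage sums (133 to 140 CPM) lay below DMSO. Called lower were 0 of 15 hepatocyte, 2 of 8 cholangiocyte and 1 of 14 tested macrophage markers, with 1, 0 and 0 higher. The part of these lists in the results at 6 h was not tested. The portal fibroblast and mesothelial sum was between 840 and 872 CPM at 12 h and between 799 and 828 CPM at 24 h.

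Ltbp2, a matrix protein of elastic fibres that, unlike its relatives, does not bind latent TGF-beta (ENSMUSG00000002020, chromosome 12, 84783212 to 84876532, minus strand), had the largest log2 fold change of the 10 genes at 6 h. Levels were 68.7, 77.0 and 73.4 CPM in DMSO and 43.6, 44.6 and 41.6 CPM at 6 h. They were 69.9, 61.1 and 69.2 CPM at 12 h and 88.6, 89.4 and 85.0 CPM at 24 h. The 6 h libraries were the lowest of all, the 12 h libraries overlapped DMSO and the 24 h libraries were the highest. Against DMSO the log2 fold change was -0.76 ± 0.06 at 6 h (adjusted p = 5.16e-07), -0.13 ± 0.06 at 12 h (adjusted p = 0.288) and 0.26 ± 0.06 at 24 h (adjusted p = 0.00739). Leaving out DMSO replicate 1 gave -0.80, -0.17 and 0.22, with the same calls. An antisense gene, D030025P21Rik, shares 764 exon bases with Ltbp2 and had 9 to 34 counts per library against 555 to 1956 for Ltbp2. The sources used here do not say how strand was handled.

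Ltbp1, the main carrier of the latent complex to the matrix (ENSMUSG00000001870, chromosome 17, 75005568 to 75392512, plus strand), was at 83.5, 82.2 and 88.8 CPM in DMSO and 56.1, 61.9 and 60.7 CPM at 6 h. No 6 h library reached the DMSO range, and the log2 fold change was -0.51 ± 0.06 (adjusted p = 1.96e-05). At 12 h the levels were 77.1, 71.6 and 82.6 CPM, a log2 fold change of -0.14 ± 0.06 that did not pass the test (adjusted p = 0.216). At 24 h they were 89.0, 90.5 and 89.3 CPM, just above DMSO, with 0.08 ± 0.06 (adjusted p = 0.42). Without DMSO replicate 1 the values were -0.52, -0.15 and 0.07, with the same calls.

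Ltbp3, which also binds the latent complex and serves bone and tooth development (ENSMUSG00000024940, chromosome 19, 5740904 to 5758532, plus strand), did not share the dip at 6 h. Its levels were 124, 121 and 120 CPM in DMSO, 130, 119 and 120 CPM at 6 h, 141, 129 and 132 CPM at 12 h, and 143, 152 and 143 CPM at 24 h. The 6 h libraries overlapped DMSO, and the 12 and 24 h libraries were all above it. The log2 fold change was 0.01 ± 0.05 at 6 h (adjusted p = 0.921), 0.13 ± 0.05 at 12 h (adjusted p = 0.162) and 0.26 ± 0.05 at 24 h (adjusted p = 0.00177). Leaving out DMSO replicate 1, the 24 h value was 0.28, still called.

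Ltbp4, an elastic-fibre protein that binds latent TGF-beta 1 (ENSMUSG00000040488, chromosome 7, 27305136 to 27337692, minus strand), was called nowhere. Its levels were 129, 129 and 144 CPM in DMSO, 131, 127 and 130 CPM at 6 h, 147, 129 and 137 CPM at 12 h, and 122, 138 and 122 CPM at 24 h. All groups overlapped DMSO. The log2 fold change was -0.05 ± 0.06 at 6 h (95% interval -0.18 to 0.08), 0.04 ± 0.06 at 12 h (-0.09 to 0.17) and -0.07 ± 0.06 at 24 h (-0.20 to 0.05), with adjusted p of 0.692, 0.803 and 0.478.

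Ltbp4 had the largest share of the latency protein level per length, with 40.6% ± 1.41 in DMSO, followed by Ltbp3 with 26.4% ± 1.20, Ltbp2 with 17.5% ± 1.03 and Ltbp1 with 15.6% ± 0.25 (SD, n = 3). At 6 h Ltbp2 held 11.9% ± 0.45 and Ltbp1 12.5% ± 0.83, both without overlap with DMSO. At 24 h Ltbp2 held 19.5% ± 0.58, above every DMSO library, and Ltbp4 35.8% ± 1.10, below every DMSO library. The summed level of the 4 genes was 170 ± 8.54 in DMSO, 147 ± 1.35 at 6 h, 169 ± 12.6 at 12 h and 184 ± 8.38 at 24 h. With the longest transcript as the length, Ltbp1 (18.3%) came before Ltbp2 (15.5%) in DMSO. At 24 h Ltbp3 (33.8%) then came before Ltbp4 (31.2%), so the order of these shares depends on the length used.

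Ordered by level per length in DMSO, Tgfbr3 (114 ± 1.24) and Tgfb1 (113 ± 1.91) came first with overlapping libraries. Ltbp4 (69.1 ± 5.57), Tgfbr2 (61.9 ± 1.45), Ltbp3 (44.8 ± 0.38) and Tgfb3 (37.2 ± 5.64) followed, each apart from the next. Ltbp2 (29.8 ± 2.34), Tgfbr1 (27.4 ± 4.43) and Ltbp1 (26.5 ± 1.49) overlapped one another in that order, and Tgfb2 (8.41 ± 1.33) was lowest. After 24 h of riociguat Tgfbr3 stood between 136.6 and 150.3 and Tgfb1 at 118 ± 1.82, no longer overlapping. With the longest transcript as the length, Tgfb1 (171) came before Tgfbr3 (94.7) in DMSO and Ltbp3 (54.8) before Tgfbr2 (48.4). Ltbp1 (32.8) then came before Tgfb3 (28.7), Ltbp2 (27.8) and Tgfbr1 (24.1). The order of these genes therefore depends on the length used, while Tgfb2 was lowest with either.

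The comparisons between exposure times ask how levels differed with the duration of riociguat and the stage at its addition. They share the riociguat libraries with the comparisons above. From 6 to 12 h, 3 of the 10 genes rose and 0 fell, against 2.57% of all genes tested higher. These were Ltbp2, with a log2 fold change of 0.62 ± 0.06 (adjusted p = 7.63e-06), Ltbp1, with 0.37 ± 0.06 (adjusted p = 0.00068), and Tgfbr3, with 0.28 ± 0.05 (adjusted p = 0.000742). From 12 to 24 h the count was 3 higher and 0 lower, against 1.37% of all genes tested higher. Ltbp2 rose by 0.39 ± 0.06 (adjusted p = 0.00102). Tgfbr3 rose by 0.18 ± 0.05 (adjusted p = 0.0416) and Ltbp1 by 0.22 ± 0.06 (adjusted p = 0.0498), but each of these calls was lost without any of 5 of the 6 libraries compared. For Tgfbr3 these were all but riociguat 24 h replicate 3, with adjusted p up to 0.162, and for Ltbp1 all but riociguat 12 h replicate 3, with adjusted p up to 0.245. Between 6 and 24 h, 4 genes rose and 0 fell, against 7.16% of all genes tested higher. Ltbp2 rose most, with a log2 fold change of 1.02 ± 0.06 (adjusted p = 9.23e-09), from a mean of 43.3 to 87.7 CPM. Ltbp1 rose by 0.59 ± 0.06 (adjusted p = 1.84e-06), Tgfbr3 by 0.46 ± 0.05 (adjusted p = 1.67e-06) and Ltbp3 by 0.25 ± 0.05 (adjusted p = 0.00223). Hepatocyte markers differed in both comparisons with 24 h, with 11 of 15 lower than at 12 h and 10 of 15 lower than at 6 h. Endothelial markers had 8 of 15 lower and 0 higher from 6 to 12 h, and 7 of 15 lower and 2 higher from 6 to 24 h. Cholangiocyte markers had 4 of 8 higher and 0 lower from 6 to 12 h. The part of these markers in the rises of Ltbp2, Ltbp1, Tgfbr3 and Ltbp3 was not tested.

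For the 4 genes with the smallest p against DMSO, the genes whose log2 levels were most alike over the 12 libraries were found by the root mean square difference after each gene's mean was subtracted. Only tested genes with a mean of at least 5 CPM were searched, and clone or predicted-gene names were left out. For Ltbp2 these were Ank3, which encodes an ankyrin (difference 0.10), and the metalloprotease gene Adamts9 (0.11), with log2 fold changes of -0.51 and -0.91 at 6 h and 0.40 and 0.22 at 24 h. The profiles nearest to Ltbp1 were those of H2-Q6 (0.06), a histocompatibility gene with close copies whose counts are uncertain, and the adhesion molecule gene Icam1 (0.07). Tnfrsf21 (0.05), a death receptor gene, and the chaperone gene Dnajc9 (0.06) were most like Tgfbr3. For Tgfb2 they were the nucleoside transporter gene Slc29a2 (0.10) and Tgm2 (0.11), which encodes a crosslinking enzyme. All of these are descriptions over 12 libraries that share groups.

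Other genes of the pathway were taken from 4 lists with 79 genes in all, of which 78 were tested and Comp was below the filter. The lists were chosen with earlier results of these data known. Their shares of called genes therefore describe the lists and cannot test whether the pathway as a whole changed. At 12 h 19 of them fell and 4 rose, which is 29.5% of those tested against 5.66% of all genes tested. The median log2 fold change over the 78 was -0.06, against 0.00 for all genes tested. The count of 23 was 14 when DMSO replicate 2 was left out, 11 for DMSO replicate 3 and 12 for riociguat 12 h replicate 2, and was 23 when DMSO replicate 1 was left out. At 6 h 18 fell and 4 rose (28.2% called against 9.72% of all genes tested, median -0.09), and at 24 h 24 fell and 7 rose (39.7% called against 13.4% of all genes tested, median -0.08). Without DMSO replicate 1 the counts called were 26 at 6 h and 31 at 24 h. Counts over all genes moved as well, and leaving out single libraries gave 510 to 1262 at 12 h in place of 907. At 6 h it gave 955 to 1852 in place of 1559, and at 24 h 1395 to 2566 in place of 2141.

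Among 21 genes that activate or anchor the latent complex, 5 fell and 0 rose at 12 h (23.8% called against 5.66% of all genes tested). Thbs1, whose product thrombospondin 1 can release TGF-beta from its propeptide, fell from a mean of 2127 to 706 CPM, a log2 fold change of -1.59 ± 0.09 (adjusted p = 5.44e-09). It was not called at 6 h (-0.12 ± 0.09, adjusted p = 0.484). Lrrc32 encodes GARP, which holds latent TGF-beta on the cell surface. Its levels were 379, 389 and 403 CPM in DMSO and 274, 259 and 270 CPM at 12 h, without overlap, and it fell by 0.54 ± 0.05 at 12 h (adjusted p = 1.45e-06), 0.31 ± 0.05 at 6 h and 0.25 ± 0.05 at 24 h. Tgm2 fell by 0.42 ± 0.04, 0.43 ± 0.04 and 0.53 ± 0.04 at 12, 6 and 24 h. Plau, the urokinase gene, fell by 0.32 ± 0.07 at 12 h (adjusted p = 0.0115), but did not pass when DMSO replicate 3 (adjusted p = 0.0687), riociguat 12 h replicate 2 (adjusted p = 0.0543) or riociguat 12 h replicate 3 (adjusted p = 0.0651) was left out. At 6 h 5 of this list fell and 1 rose (28.6% called against 9.72% of all genes tested). At 24 h 7 fell and 1 rose (38.1% called against 13.4% of all genes tested). Fbn1, chosen after its values were seen, encodes fibrillin 1, to which binding proteins attach, and fell at 6 h by 0.48 ± 0.04 (adjusted p = 2.33e-07), with -0.03 ± 0.04 at 12 h and -0.06 ± 0.04 at 24 h.

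Of 13 co-receptors and extracellular antagonists 2 fell and 2 rose at 12 h (30.8% called against 5.66% of all genes tested). Fstl1, a secreted glycoprotein gene, fell by 0.25 ± 0.04 (adjusted p = 0.00126). Eng, the co-receptor endoglin, fell by 0.16 ± 0.04 (adjusted p = 0.0379), while Bambi, a pseudoreceptor that blocks signalling, rose by 0.41 ± 0.10 (adjusted p = 0.0267) and Lum, a small matrix proteoglycan, rose by 0.36 ± 0.10 (adjusted p = 0.0461). Each of these last 3 calls was lost when any of several single libraries was left out. The call of Eng ended without replicate 2 or 3 of either group (adjusted p up to 0.253), that of Bambi without replicate 2 or 3 of DMSO or replicate 1 or 2 of riociguat 12 h (up to 0.139), and that of Lum without any library but DMSO replicate 1 (up to 0.217). Eng is also on the endothelial marker list, which summed to between 1879 and 2016 CPM at 12 h, with 2 of 15 markers lower, 0 higher and none at 0, and its part was not tested. At 24 h Lum rose by 0.96 ± 0.10 (adjusted p = 4.38e-06), in a list with 3 higher and 2 lower (38.5% called against 13.4% of all genes tested). At 6 h 3 of the list fell and 0 rose (23.1% called against 9.72% of all genes tested).

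Of 23 SMAD transducers and regulators 2 fell and 1 rose at 12 h (13% called against 5.66% of all genes tested). Tgfb1i1, the focal adhesion adaptor Hic-5, fell by 0.56 ± 0.05 (adjusted p = 2.13e-06). Smurf1, a ubiquitin ligase for SMAD proteins and receptors, fell by 0.24 ± 0.06 (adjusted p = 0.0141), a call that did not stand without either of DMSO replicates 2 and 3 or riociguat 12 h replicates 2 and 3, with adjusted p up to 0.112. Usp11, a deubiquitinase, rose by 0.56 ± 0.16 from a mean of 5.35 to 7.87 CPM (adjusted p = 0.0461), and leaving out any of the 6 libraries compared ended this call, with adjusted p up to 0.133. The feedback inhibitor genes Smad7 and Pmepa1 had -0.17 ± 0.08 (adjusted p = 0.283) and -0.20 ± 0.08 (adjusted p = 0.165) at 12 h. Pmepa1 was called at 12 h without riociguat 12 h replicate 3 (adjusted p = 0.0487). At 24 h Smad7 fell by 0.42 ± 0.08 (adjusted p = 0.00191) and Pmepa1 by 0.58 ± 0.08 (adjusted p = 6.86e-05). The list then had 6 lower and 1 higher (30.4% called against 13.4% of all genes tested). Skil, another feedback inhibitor, had 0.20 ± 0.07 at 6 h (adjusted p = 0.0645) and was called there without DMSO replicate 1 (adjusted p = 0.0412) or riociguat 6 h replicate 1 (adjusted p = 0.02), and its value was 0.05 ± 0.07 at 12 h (adjusted p = 0.755). Smad3, chosen after its values were seen, was the member of this list that fell at 6 h, by 0.40 ± 0.05 (adjusted p = 5.06e-05), where 1 other gene rose, so that 8.7% of the list was called, below the 9.72% of all genes tested. It was not called at 12 h (0.06 ± 0.05) or 24 h (0.11 ± 0.05).

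Of 21 tested response genes, which TGF-beta induces in mesenchymal cells, 10 fell and 1 rose at 12 h. At 6 h 9 fell and 2 rose, and at 24 h 9 fell and 2 rose. Each time 52.4% of the list was called, against 5.66%, 9.72% and 13.4% of all genes tested at 12, 6 and 24 h. The median of the list was -0.22 at 12 h, -0.24 at 6 h and -0.25 at 24 h. Over all genes tested it was 0.0025, -0.0044 and -0.0065. Acta2, smooth muscle actin, fell by 1.94 ± 0.09 at 12 h and Tagln, an actin-binding protein, by 1.55 ± 0.09 (adjusted p = 6.67e-10 and 1.15e-08), and both fell at 6 h, by 1.27 ± 0.09 and 0.77 ± 0.09. Ccn2, which encodes a matricellular protein, fell at 12 h by 1.44 ± 0.09 (adjusted p = 1.8e-08). At 6 h it was not called, with -0.07 ± 0.09 (adjusted p = 0.714). Il11, a cytokine gene, was the one that rose at 12 h, by 2.37 ± 0.11 from a mean of 7.19 to 37.2 CPM (adjusted p = 6.67e-10).

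**Figure D4:**
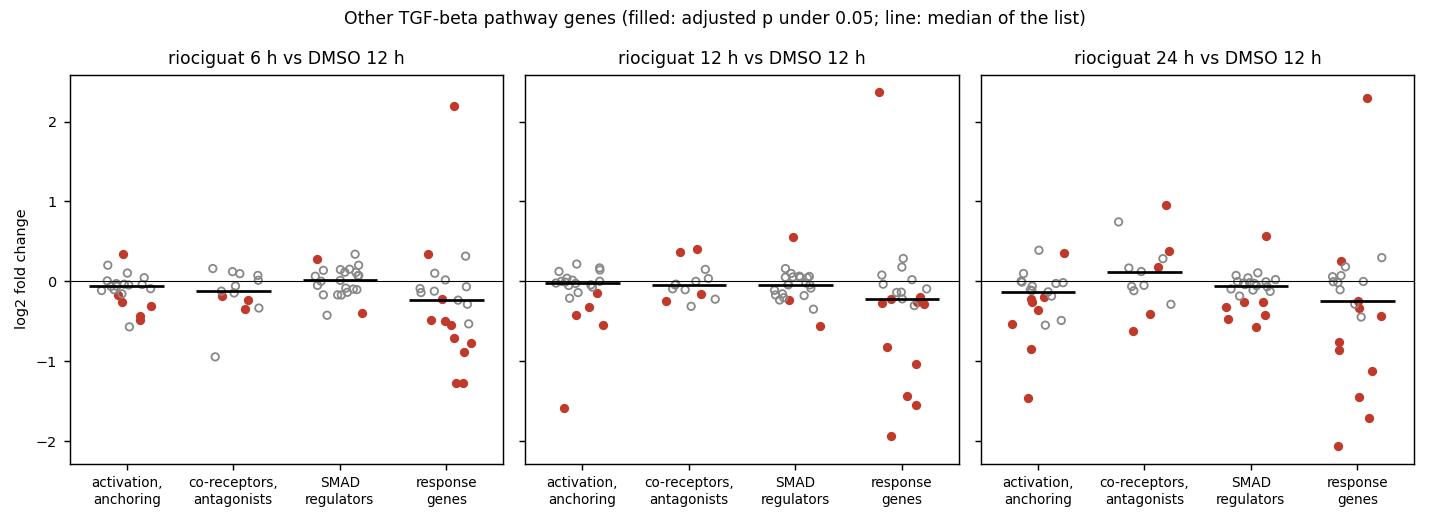
Log2 fold change (y axis) against DMSO 12 h of the 78 tested pathway genes in 4 lists (x axis) after 6, 12 and 24 h of riociguat, with a point for each gene, filled for an adjusted p under 0.05, and a line for the median of the list. Of the 21 tested response genes 9, 10 and 9 fell at the 3 times, with Il11 the highest point at each. Of all genes tested 5.24%, 3.48% and 7.41% fell.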

How the data were processed

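The authors deposited 1 table of expected counts by gene. The submitters' processing notes name FastQC, fastp, Salmon and DESeq2 and the build GRCm38 without roles or versions. Salmon divides reads among transcripts of like sequence, which leaves near copies of a gene uncertain. All value columns matched 1 sample each. The values were already whole. Tests used edgeR 4.0.16 (R 4.3.3; filterByExpr, TMM, glmQLFit and glmQLFTest, two-sided) in 1 fit of 12 libraries with group as the term, adjusted with the Benjamini-Hochberg method over 16036 genes within each comparison. Standard errors and 95% intervals come from the moderated F statistic. Levels are TMM-scaled CPM. Lengths come from GENCODE vM21. The members, lists and markers were chosen with earlier results of these data known. Named pathway genes were up to 4 per list with the smallest p among those called at 12 h, plus Smad7, Skil and Pmepa1; some items are not reported here. Alternatives were RLE factors, DESeq2 1.42.0, no low-count filter, the replicate number as a block, only the 6 libraries compared and each library left out. The fit was tested on simulated data.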

Additional observations from a re-analysis of the deposited data

Results flagged for a closer look

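Differences between exposure times that passed edgeR's test were the reason for a closer look. Between 6 and 24 h they were 1.02 for Ltbp2, 0.59 for Ltbp1, 0.46 for Tgfbr3 and 0.25 for Ltbp3, as log2 fold changes with the later time higher. Between 6 and 12 h they were 0.62 for Ltbp2, 0.37 for Ltbp1 and 0.28 for Tgfbr3. Between 12 and 24 h they were 0.39 for Ltbp2, 0.22 for Ltbp1 and 0.18 for Tgfbr3, of which the last 2 were called in few of the alternative settings. In all of these, exposure time and the stage of culture at addition changed together and cannot be told apart.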

How the results depend on the processing

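For the 10 genes, 60 log2 fold changes were recomputed in 660 alternative values. No called value changed sign, 628 kept their side of the threshold, 19 lost the call and 13 gained one. The 11 that changed sign passed the threshold in neither setting. Another scaling moved the median of all genes by at most 0.01 (log2). Same-numbered libraries of different groups correlated between -0.17 and 0.13 in their deviations from the group means, with 3 of 18 pairs over 0.1. Pairs with other numbers correlated between -0.11 and 0.13, with 1 of 36 over 0.1. Of the 12 libraries, 8 were most like one with their own number. These values do not settle whether the numbers pair the samples, and the main fit used no pairing. With the replicate number as a block, 2 of the 10 genes were called at 12 h, 4 at 6 h and 6 at 24 h against DMSO, as without it. Over all genes the block gave 793 calls at 12 h in place of 907, 1348 at 6 h in place of 1559 and 1944 at 24 h in place of 2141. From 12 to 24 h the count of 3 became 1 with the block and 1 with only the 6 libraries compared, and was 1 to 2 without single libraries. The 2 calls that the block ended were those of Tgfbr3 (adjusted p = 0.0786) and Ltbp1 (adjusted p = 0.0571). Among named pathway genes it ended those of Eng (adjusted p = 0.0504) and Usp11 (adjusted p = 0.0678) at 12 h. It also brought a call of Tgfb3 between 6 and 24 h (adjusted p = 0.0313). Over all genes, leaving out single libraries gave 510 to 1262 calls at 12 h in place of 907, 955 to 1852 at 6 h in place of 1559 and 1395 to 2566 at 24 h in place of 2141. It gave 596 to 836 between 6 and 12 h in place of 976, and 318 to 432 between 12 and 24 h in place of 494, where no low-count filter gave 838. The 23 pathway genes called at 12 h were 11 to 23. The causes were not tested. Tgfb2, with 131 to 398 counts per library, is the gene whose depth limits precision most.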
